A study of Rattus norvegicus with 16 samples.

Results

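The 8 hippocampal arrays of a study of curcumin in aged rats were compared for what differed alike after a shorter and a longer treatment. Curcumin, the main polyphenol of turmeric, was mixed into the chow of male Sprague-Dawley rats labelled 15 months old, and control rats ate chow without it, for 6 or 12 weeks. Members were chosen by tissue alone: 4 curcumin and 4 control arrays of hippocampus, 2 for each diet at each duration, out of 16 arrays in the series. Each array carried RNA pooled from 3 rats of a group, so the unit is a pool and not a rat. Both arrays of a group carry a biological replicate number in the labels, but the design text also mentions duplicate arrays of an RNA sample, so the spread behind every p-value here may be partly technical. The controls of the 6-week and 12-week comparisons were different arrays.

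The hippocampus is a chain of cell fields. Granule cells of the dentate gyrus project to CA3 pyramidal cells, these project to CA1, and CA1 sends its output through the subiculum. Curcumin has been described elsewhere as acting on antioxidant genes under the transcription factor Nrf2, on NF-kB, on histone acetyltransferases and on growth factor signalling through ERK and CREB, and genes of these pathways were followed here beside markers of the cell fields and of other cell types.

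Values are log2 expression levels of transcript clusters, the units into which the array's probes are grouped, and a difference of 1 is a doubling. On the 8 arrays the cluster medians lay between 6.36 and 6.44, and the 2 arrays of a group correlated at 0.992 to 0.996. Prox1, a transcription factor of dentate granule cells, lay between 7.31 and 8.07 on all 8 arrays. Choroid plexus, a secretory tissue that borders the hippocampus, was present unevenly in the pools after 6 weeks. Ttr, the thyroid hormone carrier made there, measured 9.59 and 12.19 on the 6-week control arrays and 6.04 and 11.96 on the 6-week curcumin arrays, against 6.42, 6.85, 7.77 and 6.32 on the 12-week arrays. Replicate 2 of both diets was thus the high array at 6 weeks, and the mean level over the 21 of 22 choroid plexus genes measured ran from 6.39 to 7.81 in the 6-week controls, from 6.00 to 7.38 with curcumin, and from 6.03 to 6.09 on the 12-week arrays.

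The first question was which genes curcumin shifted at both durations. In a linear model with duration as a block and diet as the effect (limma, 27342 clusters, Benjamini-Hochberg adjusted p), no cluster passed an adjusted p of 0.05, a share of 0%, and the lowest adjusted p was 0.903. Without adjustment 1299 clusters (4.75%) had a limma p under 0.05 and 18 had one under 0.001. No cluster passed at 6 weeks alone, at 12 weeks alone, or in the test of the difference between the durations, where 1165 clusters had an unadjusted limma p under 0.05. For the cluster of median precision the 95% interval of the shared difference reached 0.14 to either side on the log2 scale, before any adjustment.

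Across all clusters the 6-week and the 12-week differences had almost no relation (Pearson r = 0.0237, Spearman rank correlation 0.0189, across clusters, which are not independent replicates), and 50.7% of clusters had the same sign at both durations. A stricter description asked that both curcumin arrays lie beyond both control arrays. This held for 35.0% of clusters at 6 weeks and for 27.4% at 12 weeks. It held at both durations in the same direction for 603 clusters that were higher with curcumin (2.21%) and 841 that were lower (3.08%), and in opposite directions for 1275 clusters (4.66%). Among 14324 genes, each represented by its brightest cluster, the arrays were apart at both durations for 275 that were higher (1.92%) and 496 that were lower (3.46%). Counts of genes with arrays apart are read against these percentages of genes. Counts of genes with 1 sign at both durations are read against the 22.5% of all genes that were higher and the 28.3% that were lower at both.

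**Figure D1:**
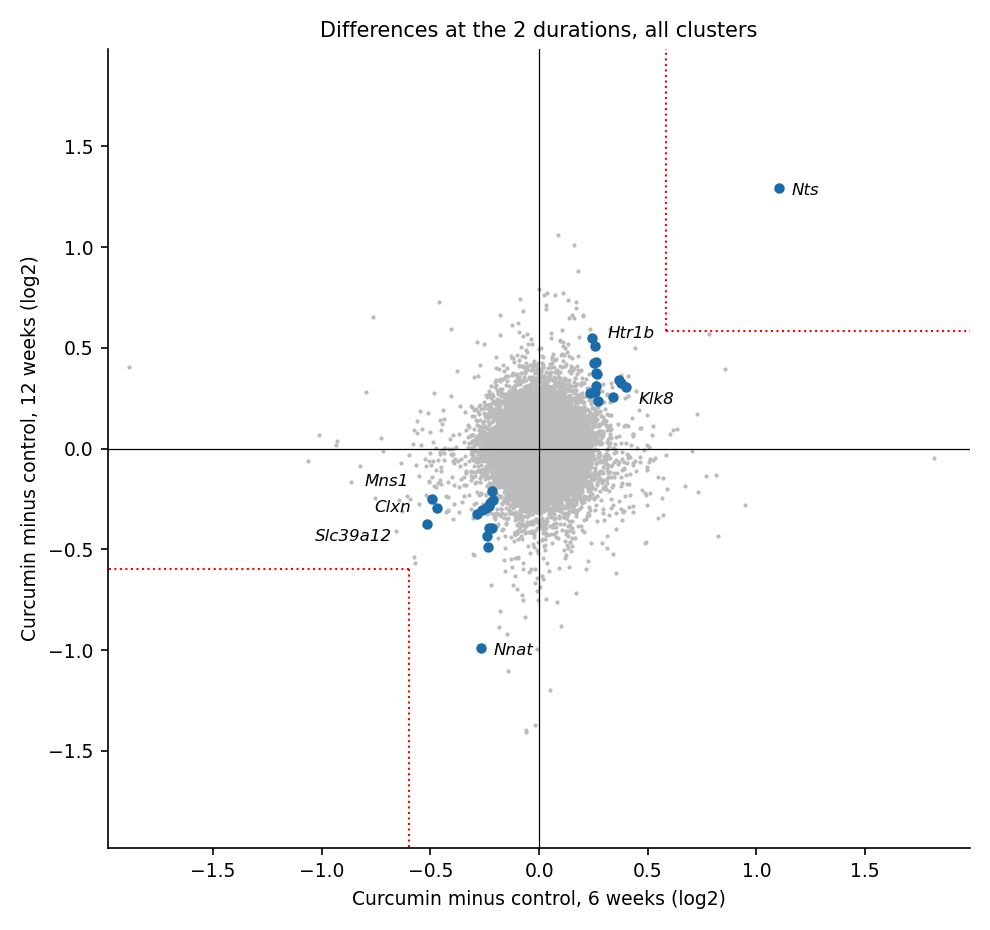
Mean difference between curcumin and control (log2) at 6 weeks (x axis) and at 12 weeks (y axis) for all 27342 clusters (grey points). Blue points are the 15 higher and 15 lower ranked genes, and the dotted red lines bound the clusters with a ratio of 1.5 or more, or 0.66 or less, at both durations. Nts stands alone in the upper right area, the lower left area is empty, and the grey cloud has no slope.

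The size rule that the study applied to each duration was a ratio of 1.5 or more or of 0.66 or less. In the deposited values 33 clusters met it at 6 weeks and 63 at 12 weeks. The paper counts more hippocampal genes than this at 6 weeks and fewer at 12 weeks, so its counts were not reproduced. The rule was met at both durations in the same direction by 1 cluster of 27342 (0.00366%), which was that of Nts, and in opposite directions by 1. Of the 16 clusters that were 1.5-fold higher at 6 weeks, 7 were also higher at 12 weeks, and their median 12-week difference was -0.03. Of the 17 that were lower at 6 weeks, 10 were also lower at 12 weeks, with a median of -0.06. Of the 30 that were higher at 12 weeks, 21 were higher at 6 weeks (median 0.10), and of the 33 that were lower at 12 weeks, 23 were lower at 6 weeks (median -0.05). In the median, clusters with a large difference at one duration were thus within 0.10 of 0 at the other.

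Nts encodes the precursor of neurotensin, a neuropeptide that acts on dopamine signalling, body temperature and pain. Its level was 8.20 and 7.70 on the 6-week control arrays and 8.87 and 9.24 on the 6-week curcumin arrays. After 12 weeks it was 6.38 and 7.67 on the control arrays and 8.31 and 8.32 on the curcumin arrays. All 4 curcumin arrays were above all 4 control arrays, and the widest spread was between the 12-week controls. The difference was 2.15-fold at 6 weeks and 2.45-fold at 12 weeks, and the shared log2 difference was 1.197 ± 0.25 (SE), with a 95% interval from 0.62 to 1.77. Nts did not pass the test across all clusters (limma, unadjusted p 0.00127, adjusted p 0.999), and the difference between its durations was 0.19 ± 0.53 (limma, unadjusted p 0.735). Without replicate 1 of the 12-week controls, its lowest array, the shared difference was 0.92. The paper lists Nts as higher in the hippocampus at 6 weeks but gives it no hippocampal value at 12 weeks.

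The stretch before the Nts start site is shown because Nts was the sole gene to meet the size rule at both durations. It covers the 250 bases before the start in the RefSeq promoter table of assembly GRCr8, chr7:39460889-39461138 on the minus strand, with the letters TGAGTCA in capitals, which begin 212 bases before the start:
Nts: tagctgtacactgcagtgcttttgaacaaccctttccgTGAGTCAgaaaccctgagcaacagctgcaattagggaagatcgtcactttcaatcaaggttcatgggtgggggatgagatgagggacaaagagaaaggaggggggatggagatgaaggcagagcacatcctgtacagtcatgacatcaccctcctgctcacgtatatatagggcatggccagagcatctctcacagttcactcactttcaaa
TGAGTCA, searched on both strands after these letters had been seen, is the core bound by AP-1 factors and occurs in 4.63% of 33469 rat promoters of this table. Among genes with arrays apart at both durations it was in 2.88% of the promoters of higher and 2.52% of those of lower genes.

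Genes were ranked by the smaller of their 2 differences, among genes whose arrays were apart in the same direction at both durations. The 15 highest, with Nts first, ended at Aldh1a2 (smaller difference 0.24, with Wipf3 next at 0.23), and the 15 lowest ended at Rab33a (-0.21, with Gstm6 next at -0.21). None of these 30 genes passed the test across all clusters, and each had an adjusted p of 0.999 (limma).

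Several of the genes that were higher encode secreted or surface proteins of synapses and growth, a grouping made after the ranking had been seen. The share of such genes among all genes was not counted, so they are not read as an excess. Klk8, neuropsin, a secreted protease that cuts synaptic adhesion proteins, measured 6.49 and 6.58 on control and 6.90 and 6.94 on curcumin arrays at 6 weeks, then 6.71 and 6.83 on control and 7.18 and 7.002 on curcumin arrays at 12 weeks. Its curcumin arrays were above the controls of the same duration, by 0.38 and 0.33, and its shared difference of 0.35 ± 0.06 had the largest moderated t of the named higher genes (limma, unadjusted p 0.000197). Ptn, the heparin-binding growth factor pleiotrophin, measured 8.83 and 8.79 against 9.07 and 9.06 with curcumin at 6 weeks, and 8.87 and 8.996 against 9.27 and 9.15 at 12 weeks. The 2 diets did not overlap even across durations, and the difference was nearly the same size at both, 0.26 and 0.28.

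Arc, an immediate early gene whose protein draws AMPA receptors from the synapse, measured 8.45 and 8.18 on control and 8.58 and 8.58 on curcumin arrays at 6 weeks, and 7.996 and 7.85 on control and 8.47 and 8.12 on curcumin arrays at 12 weeks. The gaps between the diets were narrow, 0.13 at 6 weeks and 0.12 at 12 weeks. Htr1b, a serotonin receptor of axon endings, measured 7.99 and 8.20 against 8.40 and 8.30 at 6 weeks, and 8.16 and 8.01 against 8.58 and 8.59 at 12 weeks. Here the 4 curcumin arrays lay above the 4 control arrays, with a shared difference of 0.38 ± 0.07.

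Tox, an HMG-box transcription factor, measured 7.21 and 7.22 on control and 7.51 and 7.44 on curcumin arrays at 6 weeks, and 7.20 and 7.04 on control and 7.45 and 7.41 on curcumin arrays at 12 weeks. No control array was above 7.22 and no curcumin array was below 7.41. The other higher genes included the adhesion receptor Adgrl2 (0.40 at 6 weeks and 0.31 at 12 weeks), the axonal adhesion protein Cntn6 (0.34 and 0.26), the secreted matricellular protein Ccn3 (0.27 and 0.37), the transcription factor Pou3f1 (0.25 and 0.42), the carbonic anhydrase Car7 (0.24 and 0.55), the retinoic acid enzyme Aldh1a2 (0.24 and 0.28), Ccdc107 (0.27 and 0.24) and Krtap31-1, a keratin-associated protein (0.26 and 0.43). Replicate 2 of the 12-week controls was the low array for Ccn3 and Krtap31-1, and without it their shared differences were 0.19 and 0.19, against 0.32 and 0.35 with it. Cttnbp2, a cortactin-binding protein of dendritic spines, was among the 5 higher genes with the largest moderated t although its differences were smaller (0.19 and 0.23).

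**Figure D2:**
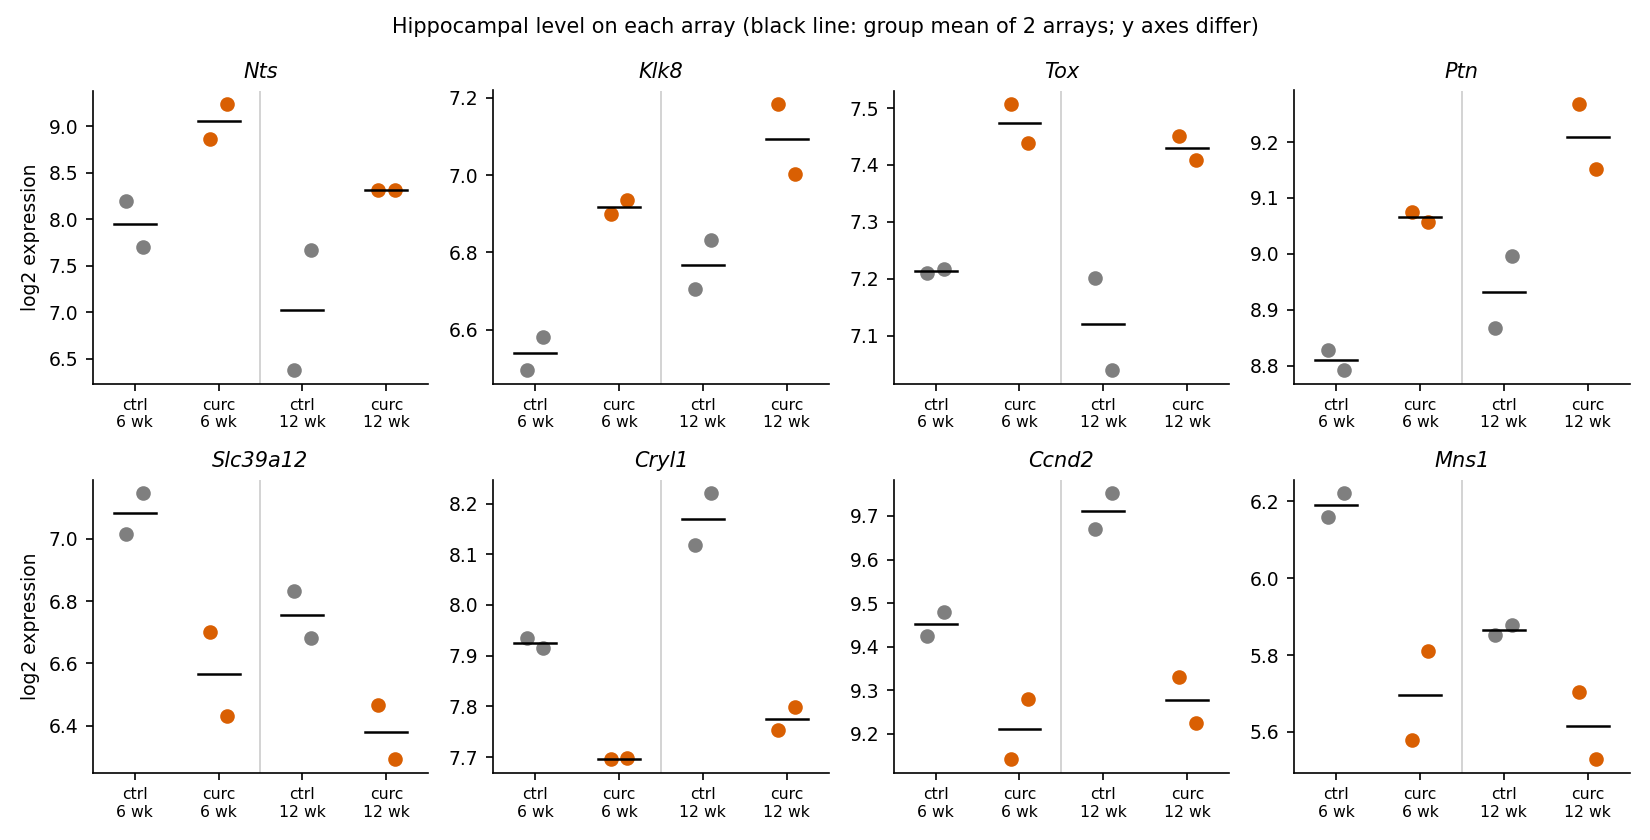
Log2 expression level of 8 genes on each of the 8 hippocampal arrays, grouped by diet and duration, with control arrays in grey, curcumin arrays in orange and the mean of each pair of arrays as a black line. The upper row shows genes that were higher with curcumin and the lower row genes that were lower. For every gene shown, both curcumin arrays lie beyond both control arrays of the same duration.

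First among the lower genes by this ranking was Slc39a12, a zinc transporter made by astrocytes. It measured 7.02 and 7.15 on control and 6.70 and 6.43 on curcumin arrays at 6 weeks, and 6.83 and 6.68 on control and 6.47 and 6.29 on curcumin arrays at 12 weeks. The diets were apart at each duration, and the shared difference was -0.45 ± 0.08. Of the 12 of 15 astrocyte genes measured, Slc39a12 was the lowest, 3 were higher and 4 lower at both durations, and the list's median was -0.01. Cryl1, an enzyme of sugar metabolism, measured 7.94 and 7.92 against 7.70 and 7.70 with curcumin at 6 weeks, and 8.12 and 8.22 against 7.75 and 7.80 at 12 weeks, and had the largest moderated t of any named lower gene (limma, unadjusted p 0.000217).

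Ccnd2, cyclin D2, which drives the division of neuronal progenitors, measured 9.42 and 9.48 on control and 9.14 and 9.28 on curcumin arrays at 6 weeks, and 9.67 and 9.75 on control and 9.33 and 9.22 on curcumin arrays at 12 weeks. All 4 curcumin arrays were below all 4 control arrays. Dcx, the microtubule protein of immature neurons, was also apart at both durations, with differences of -0.16 and -0.35. Of 15 progenitor and immature neuron genes measured, Dcx was the 1 apart and lower at both durations and none was apart and higher. Of 21 cell cycle genes 2 were apart and lower (Ccnd2 and Ccna2) and none was apart and higher. The shares over all genes were 3.46% lower and 1.92% higher. By sign alone, 6 progenitor genes were lower at both durations, 3 were higher (Hes5, Hopx and Igfbpl1) and 6 changed sign. Of the cell cycle genes 11 were lower, 2 higher and 8 changed sign. The medians of these lists were -0.02 and -0.04, beside -0.01 over all genes, and next to Ccnd2 in the cell cycle list came the mitotic genes Aurkb (-0.40 at 6 weeks and -0.14 at 12 weeks) and Prc1 (-0.27 and -0.22), whose arrays overlapped at 6 weeks. Both rested on replicate 1 of the 6-week controls, which measured 6.64 for Aurkb and 6.18 for Prc1 against 5.68 and 5.46 on its mate. Without that array their shared differences were -0.05 and -0.09, against -0.27 and -0.24 with it.

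The remaining lower genes included membrane proteins of neurons. Flrt3, an adhesion protein of axons and synapses, differed by -0.24 at 6 weeks and -0.30 at 12 weeks, Glra2, a glycine receptor subunit, by -0.22 and -0.39, and the orphan receptor Gpr165 by -0.23 and -0.28. Elavl2, a neuronal RNA-binding protein, differed by -0.24 and -0.49, the vesicle traffic protein Rab33a by -0.22 and -0.21, and Bace2, an aspartyl protease related to the enzyme that cuts the amyloid precursor, by -0.21 and -0.25. Over the 20 amyloid and Alzheimer genes measured, 2 were apart and lower (Bace2 and Cdk5), against 3.46% of all genes. None was apart and higher, and the median was -0.01.

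Among the 15 lowest ranked genes, 4 encode proteins of cilia, the organelles that beat on ependymal cells, a grouping made after the ranking had been seen. The share of cilia genes among all genes was not counted, so the 4 are not read as an excess. Mns1, a filament protein inside the axoneme, measured 6.16 and 6.22 on control and 5.58 and 5.81 on curcumin arrays at 6 weeks, and 5.85 and 5.88 on control and 5.70 and 5.53 on curcumin arrays at 12 weeks. Clxn, which docks dynein arms, differed by -0.47 and -0.29, Dnai4, an axonemal dynein chain, by -0.29 and -0.33, and Ift70a2, of the intraflagellar transport machinery, by -0.22 and -0.27.

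The list of ependyma and motile cilia genes, which does not hold those 4, had 13 of 24 members measured. Of these 8 were lower at both durations and 1 was higher, against 28.3% and 22.5% of all genes, and Ak7 was the only member with arrays apart at both durations. The list's median difference was -0.16 at 6 weeks and -0.03 at 12 weeks, so most of it lay at the shorter duration. Dnah12 differed by -0.51 and -0.17, Hydin by -0.50 and -0.08 and Tekt1 by -0.23 and -0.06. Without replicate 1 of the 6-week controls the shared difference of Ak7 was -0.12, against -0.22 with it, and that of Hydin -0.18, against -0.29. The mean level of the list was 5.90 to 6.05 in the 6-week controls and 5.74 to 5.85 with curcumin, and 5.85 to 5.90 and 5.81 to 5.86 at 12 weeks, where the diets overlapped. The choroid plexus genes, which share the ventricle wall with ependyma, had a median of -0.44 at 6 weeks and 0.05 at 12 weeks, 0 of 21 were apart at both durations, and their part in the differences of cilia genes was not tested.

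**Figure D3:**
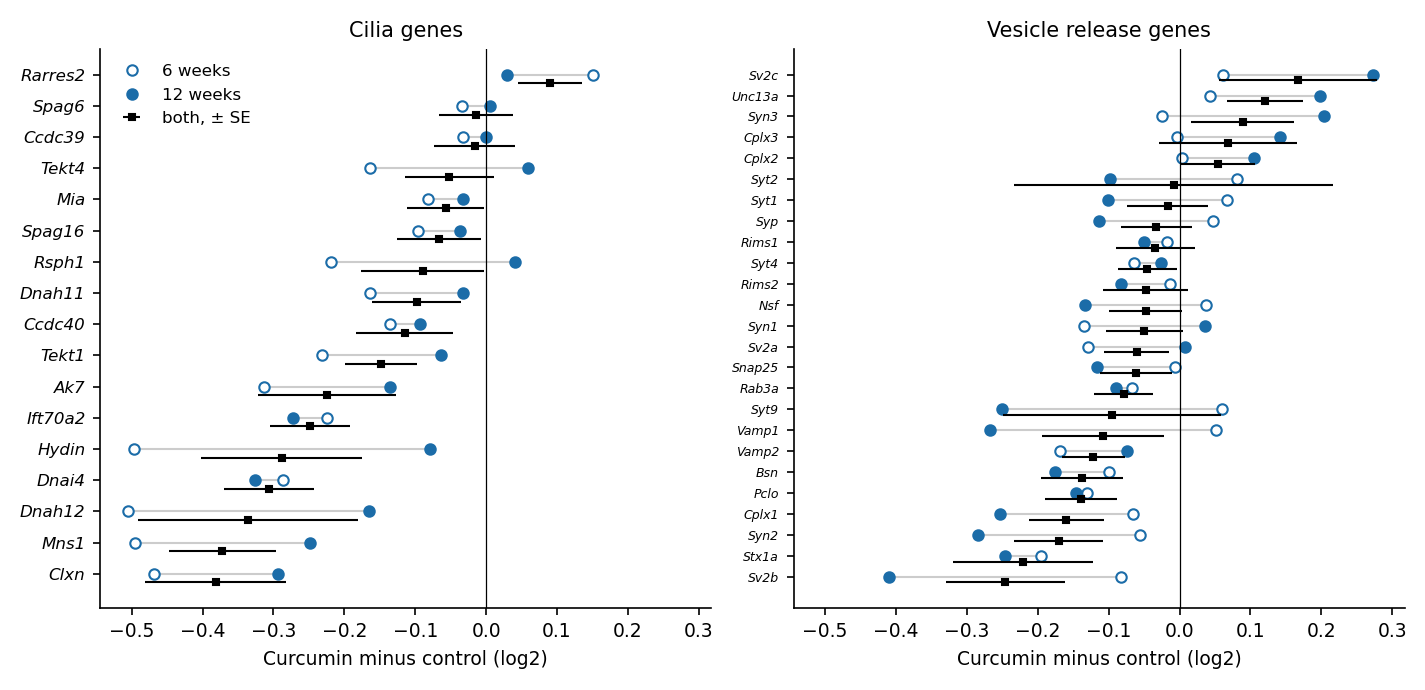
Difference between curcumin and control (log2) for each gene at 6 weeks (open circles) and 12 weeks (filled circles), with the shared difference and its standard error in black. The left panel joins the 13 measured ependyma and cilia genes with the ranked genes Clxn, Dnai4, Mns1 and Ift70a2, and the right panel shows 25 genes of synaptic vesicle release. The 4 ranked genes have both circles left of 0, as the ranking requires, while in several list members such as Hydin the 12-week circle is near 0.

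Genes that mark the CA2 and CA3 fields were mostly lower with curcumin at both durations. Of 12 CA2 and CA3 genes measured of 13 listed, 8 were lower at both durations and 1, Rgs14, was higher (0.03 and 0.34), against 28.3% and 22.5% of all genes. The other 3 changed sign between the durations. They were Mas1 (0.18 and -0.02), Cacng5 (-0.01 and 0.05) and Prkcd (-0.29 and 0.53), the last with arrays apart in opposite directions. Nnat, Cpne4 and Grik4 were lower with arrays apart at both durations, 3 of 12 against 3.46% of all genes. The list's median difference was -0.16 at 6 weeks and -0.20 at 12 weeks, beside -0.01 and -0.000547 over all genes. In 5 of the 12 members the unadjusted limma p of a difference in the lower direction was under 0.05, against 3% of all genes in that direction, and none passed after adjustment. Nnat, which is in both counts, was also named by the study at 12 weeks from these arrays, so it is not independent of them.

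Nnat, neuronatin, a small membrane protein of the endoplasmic reticulum, measured 9.23 and 9.45 on control and 9.03 and 9.11 on curcumin arrays at 6 weeks, and 9.77 and 9.57 on control and 8.23 and 9.12 on curcumin arrays at 12 weeks. Its arrays were apart at both durations, but the 12-week difference of -0.99 was much larger than the 6-week one of -0.27, and replicate 1 of the 12-week curcumin arrays was the lowest. Without it the shared difference was -0.38, against -0.63 with it. Cpne4, a calcium-binding copine strong in CA3, measured 9.502 and 9.60 against 9.16 and 9.42 at 6 weeks, and 9.63 and 10.05 against 9.58 and 9.49 at 12 weeks.

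Grik4, a kainate receptor subunit of CA3, measured 8.34 and 8.43 against 8.23 and 8.22 at 6 weeks, and 8.50 and 8.88 against 8.31 and 8.08 at 12 weeks. Amigo2, a surface protein of CA2 and CA3 cells, differed by -0.16 and -0.43 and overlapped between the diets at 6 weeks. Pcp4, a calmodulin regulator of CA2, differed by -0.25 and -0.13 and overlapped at 12 weeks. The mean level over the 12 genes was 7.85 and 7.95 in the 6-week controls and 7.79 and 7.76 with curcumin, and 7.97 and 8.10 in the 12-week controls and 7.83 and 7.84 with curcumin, so the diets did not overlap at either duration. Such a separation was not particular to this list. The mean level of CA1 and subiculum genes was higher with curcumin without overlap at both durations, as given below. That of synaptic vesicle release genes was lower, 9.25 to 9.26 in the 6-week controls against 9.20 to 9.24 with curcumin. At 12 weeks it was 9.22 to 9.28 against 9.13 to 9.21. In pooled tissue, fewer cells of a field and less RNA per cell cannot be told apart.

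Of the 10 CA1 and subiculum genes, all measured, 4 were higher at both durations and 2 were lower, and 2 were higher with arrays apart, against 1.92% of all genes. These were Pou3f1 and Ccn3, the latter resting in part on 1 control array as given above, and with Wfs1 they were the 3 of 10 with an unadjusted limma p under 0.05 in the higher direction, against 1.87% of all genes. Wfs1 was also named by the study at 12 weeks from these arrays, so it is not independent of them. Pou3f1 measured 7.18 and 7.33 on control and 7.49 and 7.53 on curcumin arrays at 6 weeks, and 7.39 and 7.20 on control and 7.85 and 7.59 on curcumin arrays at 12 weeks. Wfs1, the endoplasmic reticulum protein that fills CA1 cells, was 1.06 higher at 12 weeks but only 0.09 higher at 6 weeks, where the diets overlapped. The list's median was 0.10 at 6 weeks and -0.01 at 12 weeks, and Fibcd1, another CA1 gene, differed by 0.03 and -0.43. The members therefore did not all move in 1 direction. The mean level over the 10 genes was 8.15 and 8.21 in the 6-week controls and 8.30 and 8.21 with curcumin. At 12 weeks it was 8.17 and 8.11 in the controls and 8.27 and 8.24 with curcumin. By this measure the diets did not overlap at either duration, but at 6 weeks the nearest arrays were 8.2085 and 8.2102. This mean includes Wfs1.

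**Figure D4:**
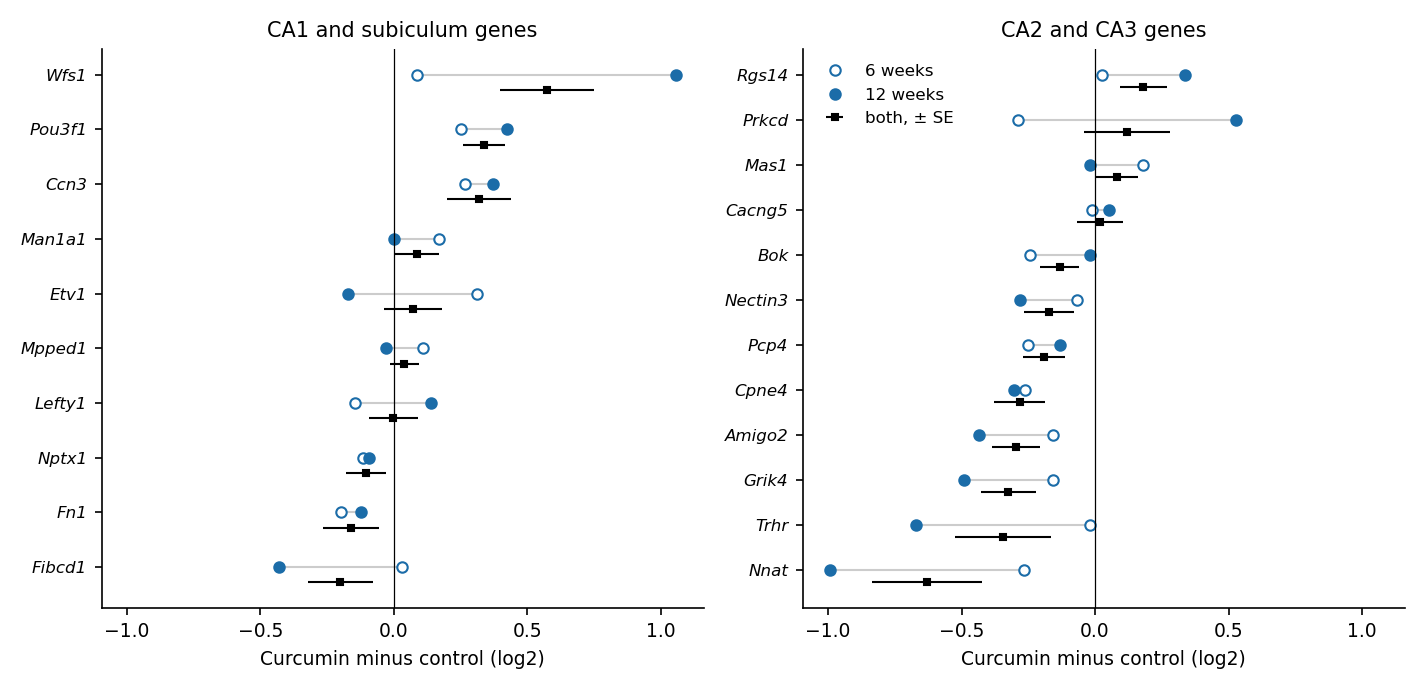
Difference between curcumin and control (log2) for the measured CA1 and subiculum genes (left) and CA2 and CA3 genes (right) at 6 weeks (open circles) and 12 weeks (filled circles), with the shared difference and its standard error in black. Most CA2 and CA3 genes have both circles at or left of 0, and Pou3f1 and Ccn3 have both right of 0.

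Dentate granule cell genes had a median difference of -0.03 at 6 weeks and 0.14 at 12 weeks over 7 of 14 members, and 5 of the 7 changed sign between the durations. Prox1 differed by -0.08 and 0.41. None of them was apart in the same direction at both durations.

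At synapses, 5 of the 25 vesicle release genes measured were lower with arrays apart at both durations, against 3.46% of all genes, and none was higher. These were the vesicle protein Sv2b (-0.08 and -0.41), the fusion regulator Cplx1 (-0.07 and -0.25), the active zone scaffold Pclo (-0.13 and -0.15), the vesicle SNARE Vamp2 (-0.17 and -0.07) and the vesicle GTPase Rab3a (-0.07 and -0.09). The list's median was -0.05, and Sv2c and Unc13a differed the other way at both durations. Vamp2 measured 9.13 and 9.22 on control and 8.98 and 9.02 on curcumin arrays at 6 weeks, and 9.19 and 9.13 on control and 9.09 and 9.08 on curcumin arrays at 12 weeks, a separation of the diets by small steps.

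On the receiving side, 3 of 28 glutamate receptor and postsynaptic genes were apart and higher at both durations, against 1.92% of all genes. Another 2 were apart and lower, against 3.46%. The higher ones were Camk2a (0.06 and 0.17) and Camk2b (0.06 and 0.29), the subunits of the kinase that carries synaptic potentiation, and the AMPA receptor subunit Gria1 (0.14 and 0.05). The lower ones were the kainate receptor subunits Grik4 and Grik5, the latter with -0.12 and -0.10. Of 20 GABA interneuron and receptor genes, 11 were lower at both durations and 1 was higher, against 28.3% and 22.5% of all genes, with a median of -0.08. Gad1, which makes GABA, differed by -0.05 and -0.21 with arrays apart, and the receptor subunit Gabra4 differed the other way (0.08 and 0.33, arrays apart).

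Among 26 serotonin, dopamine, noradrenaline and acetylcholine receptor genes, Htr1b was the 1 that was apart and higher. Htr7 (-0.17 and -0.40), Htr5a (-0.05 and -0.14) and the nicotinic subunit Chrnb2 (-0.07 and -0.11) were apart and lower. The shares over all genes were 1.92% apart and higher and 3.46% apart and lower. Of 28 neuropeptide genes measured, Nts was the 1 apart and higher, and Tacr1, the substance P receptor, was the 1 apart and lower (-0.10 and -0.14). The list's median was -0.03. Of 21 glucocorticoid and clock genes, 4 were apart and higher at both durations, against 1.92% of all genes. These were the clock repressors Bhlhe40 (0.14 and 0.39) and Bhlhe41 (0.17 and 0.37), the glucocorticoid receptor Nr3c1 (0.11 and 0.25) and the mineralocorticoid receptor Nr3c2 (0.17 and 0.09). In the same list Tsc22d3, a glucocorticoid-induced gene, and the clock factor Tef were apart and lower (-0.09 and -0.11, and -0.15 and -0.07).

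Genes of the pathways often named for curcumin were followed in 5 lists. Of 29 Nrf2 and antioxidant genes measured, 9 were higher and 10 lower at both durations, against 22.5% and 28.3% of all genes, and 2 were apart and lower, against 3.46% of all genes, the glutathione reductase gene Gsr (-0.12 at both durations) and Sod1 (-0.07 and -0.04). Gsr measured 8.04 and 8.05 against 7.94 and 7.90 with curcumin at 6 weeks, and 7.80 and 7.83 against 7.78 and 7.62 at 12 weeks. Of 25 NF-kB and inflammation genes, 4 were higher and 6 lower at both durations, and Vcam1 (-0.09 and -0.08) and Nfkbib (-0.12 and -0.03) were apart and lower. None of 23 histone acetyltransferase and deacetylase genes, of 21 BDNF, ERK and CREB genes, or of 17 drug metabolism genes was apart in the same direction at both durations. The medians of these 5 lists lay between -0.02 and 0.02.

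Of 16 immediate early genes, Arc was apart and higher and Jun apart and lower (-0.11 and -0.15), and the list's median was -0.09 at 6 weeks and 0.21 at 12 weeks. Of 20 heat shock chaperones, 10 were lower at both durations and none was higher, against 28.3% and 22.5% of all genes. Among these chaperones 2 were apart and lower, against 3.46% of all genes. They were the endoplasmic reticulum chaperone Hspa5 (-0.22 and -0.10) and Hsph1 (-0.05 and -0.07). Of 28 genes in the respiratory chain list, 4 were apart and lower, against 3.46% of all genes. These were the chain subunits Cox7a2 (-0.07 and -0.20) and Uqcrc1 (-0.07 and -0.08), the ATP synthase subunit Atp5f1a (-0.05 and -0.13) and Ppargc1a, a transcriptional coactivator of mitochondrial genes (-0.08 and -0.17), while the list's median was 0.03 at 6 weeks and -0.06 at 12 weeks. Of 25 ribosomal protein genes 1, Rplp1, was apart and higher.

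**Figure D5:**
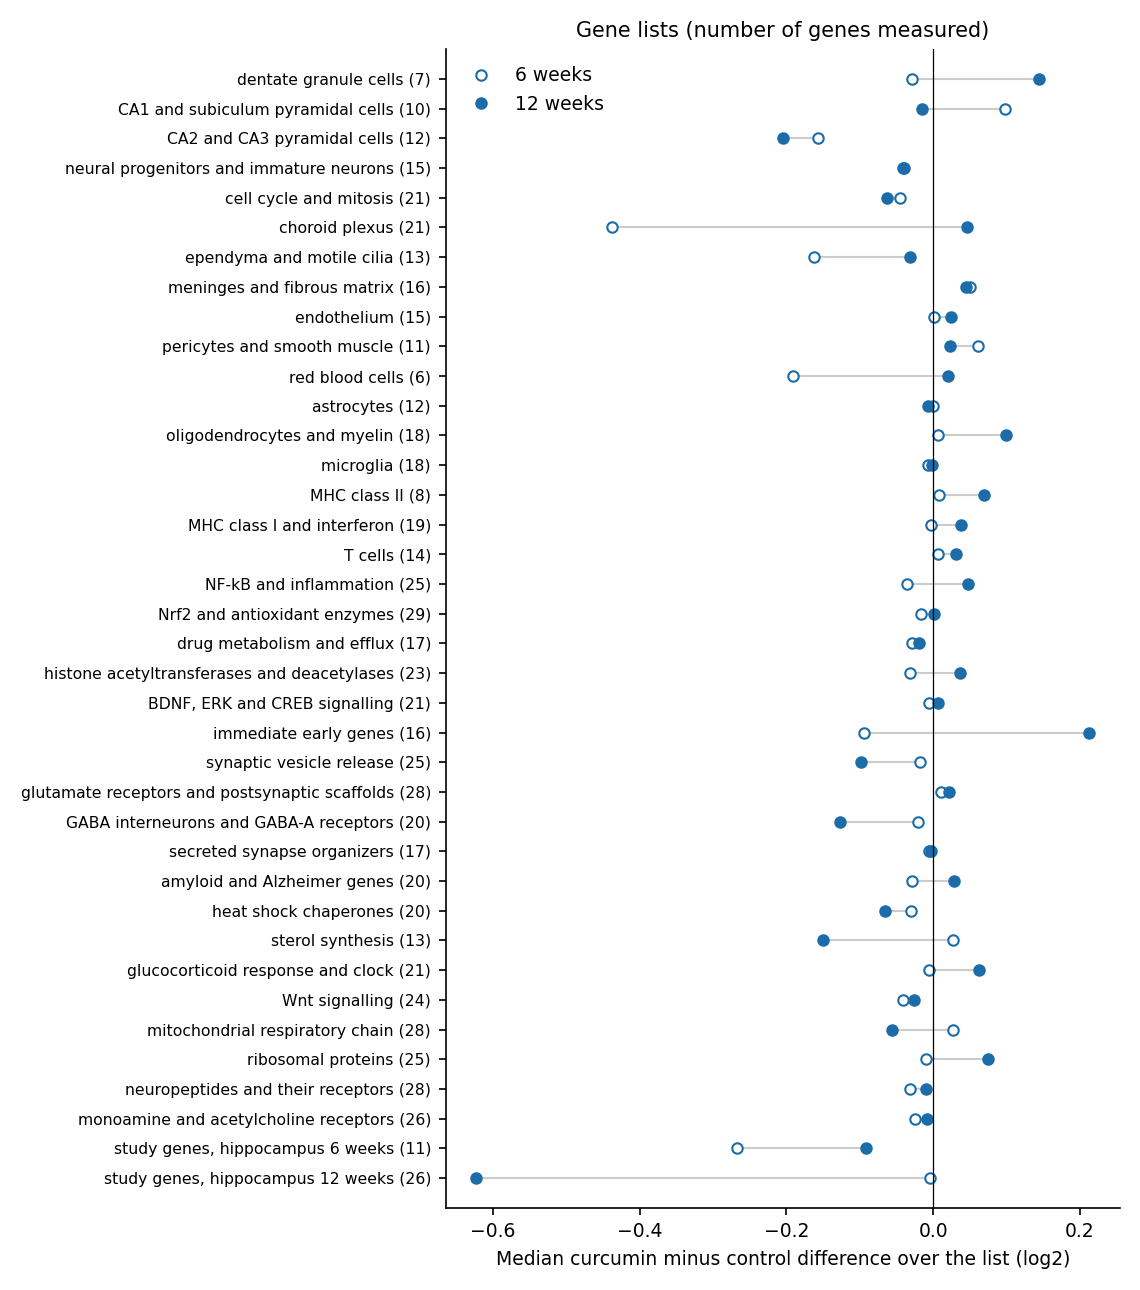
Median difference between curcumin and control (log2) over the measured genes of each list at 6 weeks (open circles) and 12 weeks (filled circles), with the number of genes measured in brackets. CA2 and CA3 genes lie left of 0 at both durations by more than 0.1, choroid plexus genes only at 6 weeks, and most other lists lie near 0.

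Markers of other cell types were examined over the same arrays. Microglia (18 genes, median -0.04), oligodendrocyte (18 genes, 0.04), endothelial (15 genes, 0.02), pericyte (11 genes, 0.02) and T cell genes (14 genes, 0.01) had shared medians within 0.05 of 0. Itgam, the microglial integrin, was apart and higher (0.17 and 0.22). Of 16 meningeal genes, 8 were higher and 3 lower at both durations, against 22.5% and 28.3% of all genes, with a median of 0.06. Aldh1a2 and Slc13a3 (0.16 and 0.13) were apart and higher. The matrix gene Dcn went the other way (-0.37 and -0.31), without separation of the arrays at either duration. Red blood cell genes had a median of -0.19 at 6 weeks and 0.02 at 12 weeks.

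The genes that the study named at either duration were chosen on these arrays, so their own duration is a description and not evidence. The lists used here hold 16 genes of 6 weeks and 34 of 12 weeks, which are part of all those the study called. Of the 11 measured genes of 6 weeks, 6 had the same sign at 12 weeks, Nts and Ak7 with arrays apart at both durations. The median size of the difference was 0.40 at 6 weeks and 0.19 at 12 weeks. On the log2 scale 0.40 is less than 1.5-fold, so most of the 11 did not meet the study's size rule at 6 weeks in these values. Of the 26 measured genes of 12 weeks, 19 had the same sign at 6 weeks, Nnat and Robo3 with arrays apart at both, and the median size was 0.71 at 12 weeks and 0.07 at 6 weeks. Robo3, an axon guidance receptor, measured 5.95 and 6.19 on control and 6.196 and 6.34 on curcumin arrays at 6 weeks, and 5.77 and 5.84 on control and 6.44 and 6.49 on curcumin arrays at 12 weeks. At 6 weeks its diets were separated by a gap of only 0.01.

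Several of the 12-week genes had 6-week differences near 0. Npy2r, a neuropeptide Y receptor, differed by -1.41 at 12 weeks and -0.06 at 6 weeks, Itgbl1 by -1.37 and -0.02, Wfs1 by 1.06 and 0.09, and Cd3e, a T cell receptor chain, by 1.01 and 0.16. Lpl, lipoprotein lipase, differed by -0.81 and -0.18 and Plagl1, a zinc finger protein, by -1.10 and -0.14, and the shared difference of Plagl1 went from -0.62 to -0.39 without replicate 1 of the 12-week curcumin arrays. The test of the difference between the durations called none of them after adjustment (limma).

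Promoters were searched for the core of the antioxidant response element, TGACNNNGC, and for the CREB element TGACGTCA, on both strands in the stretch from 250 bases before to 50 after each start. A promoter was found for 10 of the 15 higher ranked genes and 9 of the 15 lower ones. Aldh1a2 was the 1 of 10 and Flrt3 the 1 of 9 with TGACNNNGC, against 12.1% of all promoters, and none of the 19 held TGACGTCA, against 1.83%. Among all genes with arrays apart at both durations, TGACNNNGC was in 11.1% of the promoters of higher and 14.7% of those of lower genes, and TGACGTCA in 2.47% and 3.67%. The matches in the ranked genes are shown with the element in capitals, at chr8:80758470-80758498 on the plus strand (Aldh1a2) and chr3:148461406-148461434 on the minus strand (Flrt3, element on the opposite strand) of GRCr8:
Aldh1a2: gccgcggactTGACCGTGCgggcgccgcg
Flrt3: ggtgggctgcGCGCAGTCAactggatgct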

How the data were processed

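The deposited table holds log2 expression values of 27342 transcript clusters on 16 Affymetrix arrays, which the authors made with Expression Console, RMA and Gene Spring (versions not given in the sources used here). No probe-level data were used here. A rat exon array is named in the methods, and the cluster identifiers match a rat gene array annotation. Of the clusters, 15097 had exactly 1 gene symbol, 323 several and 11922 none. Symbols were updated by gene ID through RefSeq (GRCr8) for 15067.

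The 8 hippocampal arrays were fitted with limma 3.58.1 in R 4.3.3 (duration as block, diet as effect, eBayes) and Benjamini-Hochberg adjustment over all clusters. A fit with 4 group means gave each duration and their difference. The study's own rule for the arrays was a 1.5-fold size without a test. The study also measured selected hippocampal genes by quantitative PCR with t-tests, and reports trends similar to those of its arrays. The fit was tested on simulated data. Named genes were the 15 highest and 15 lowest by the smaller difference, the 5 per direction with the largest moderated t, up to 4 members per list, study genes of one sign, and clusters at 1.5-fold at both durations. Some list members with arrays apart, or markers of a cell type, were named outside this rule after their values were seen. The comparison and the lists were chosen with earlier results of these data known. Same-numbered arrays did not pair (correlations of their deviations 0.04 at 6 weeks and -0.43 at 12 weeks). Alternatives were dim filtering, quantile normalization, other models, thresholds and leaving out each array. Plots used Python 3.11.15 and matplotlib 3.10.9. Cortical arrays entered 1 alternative fit only.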

Additional observations from a re-analysis of the deposited data

Results flagged for a closer look

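Among the genes the study named in the hippocampus, 2 had arrays apart at both durations but in opposite directions. Both were among the 11 measured genes of 6 weeks, and 0 of the 26 measured genes of 12 weeks were so. The same held for 691 of all 14324 genes and 4.66% of all clusters, so the count is not read as an excess. Htra4, a serine protease, differed by -0.76 at 6 weeks and 0.65 at 12 weeks, so that the 12-week difference minus the 6-week one was 1.41 ± 0.43 (SE; limma, unadjusted p 0.0118). Cbln1, a secreted synapse organizer, differed by -0.44 and 0.19, a change of 0.63 ± 0.20 (limma, unadjusted p 0.0161). Neither change passed the test across all clusters. The paper lists another gene, Slc38a4, as higher at 6 weeks and lower at 12 weeks in the hippocampus, and it was not among these 2.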

How the results depend on the processing

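The shared fit called 0 clusters in each alternative but 1. With all 16 arrays and group means it called 1 cluster, that of Cd3e (adjusted p 0.0457), whose 6-week and 12-week differences were 0.16 and 1.01. In the other alternatives the lowest adjusted p was 0.0834, without replicate 1 of the 12-week controls. Counted without adjustment the clusters were 1299 (p under 0.05) and 18 (p under 0.001). With same-numbered arrays as a replicate block, 0 clusters were called (892 at an unadjusted p under 0.05), and with the 12-week numbers crossed, an alternative chosen after seeing the data, 0 (1656). The test of the difference between durations called 0 clusters also with 16 arrays. Clusters with arrays apart at both durations fell from 1444 to 70 when a gap of at least 0.1 was asked for, and numbered 2497 to 3505 when an array was left out, since fewer arrays then have to be apart. The 1.5-fold rule gave 43 clusters at 1.2-fold and 7 at 1.3-fold, and 1 to 5 when an array was left out, 5 without replicate 1 of the 12-week controls, and 2 without replicate 1 of the 6-week curcumin or the 12-week curcumin arrays. The correlation between durations ran from -0.0733 (without 6-week control replicate 2) to 0.114 (without 6-week control replicate 1), so its sign depends on single arrays. The ranked genes, and the study genes of 1 sign at both durations, kept their direction in each alternative that gave them a value. For the ranked genes this was fixed in advance where an array was left out, because they were chosen for arrays apart at both durations. The other study genes were not recomputed one by one. Medians of lists near 0, such as those of progenitor, astrocyte, microglia and NF-kB genes, changed sign in some. The CA2 and CA3 median ran from -0.20 to -0.16 when an array was left out, and the choroid plexus median from -0.41 to 0.12. With 2 arrays per group, the number of arrays limits all of these values.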

Other observations

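The lowest unadjusted p of all clusters belonged to cluster 10726674, which has no gene name in the tables used here. It measured 5.57 and 5.76 on control and 5.17 and 5.01 on curcumin arrays at 6 weeks, and 5.58 and 5.73 on control and 5.18 and 4.98 on curcumin arrays at 12 weeks. The 4 curcumin arrays were below the 4 control arrays by -0.57 at each duration (shared difference -0.57 ± 0.07, limma, unadjusted p 3.30e-05, adjusted p 0.903).

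Several unnamed clusters among the lowest ones stood close together in the table. The 43 clusters listed after that of Cmtr2 and up to that of Hydin, 42 of them without a gene name, were taken as a run after their values had been seen. Of these, 41 were lower with curcumin at 6 weeks and 30 at 12 weeks, and 9 had arrays apart and lower at both durations. The median difference was -0.37 at 6 weeks and -0.06 at 12 weeks. Their mean level was 6.51 and 6.35 on control and 5.92 and 6.19 on curcumin arrays at 6 weeks, and 6.01 and 6.07 against 5.90 and 6.02 at 12 weeks. Neighbouring clusters may measure parts of the same transcript, so they are not independent, and which genes they belong to was not examined.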
